A study of Mus musculus with 11 samples.

Results

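The neural miRNAs miR-9, miR-124, miR-128, miR-137 and miR-219 were examined in mouse embryonic stem (mES) cells with and without the RNA binding protein Trim71, to ask whether they are raised in the mutant cells, as a test of neural priming. Members were chosen by name alone, as every mature miRNA whose hairpin carries 1 of these 5 numbers, whatever its letter, copy or arm. Of the 592 miRNAs in the table, 8 qualified: miR-9-5p, miR-9-3p, miR-124-3p, miR-124-5p, miR-128-3p, miR-128-1-5p, miR-219a-1-3p and miR-219a-2-3p. They cover 4 of the 5 numbers, and miR-137 was not analysed here.

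Both groups were male C57BL/6 mES cells cultured with FCS and LIF, homozygous for a floxed Trim71 allele and for Rosa26-CreERT2, a Cre recombinase that is expressed from the Rosa26 locus and activated by 4-hydroxytamoxifen (4-OHT). Trim-/- cells had received 500 nM 4-OHT for 2 days and were kept for at least 7 more days, per the labels, whereas the published methods give a different dose and a shorter culture after treatment. Trimfl/fl cells keep the floxed allele and, per the methods, received the solvent DMSO. Cells of both genotypes were sorted magnetically for SSEA-1 before harvest to remove spontaneously differentiated cells. The study used 2 clones. Clone 1 gave a same-day pair of both genotypes on days 1, 5 and 6, and clone E3 on days 3 and 4. A further Trimfl/fl library of clone E3 from day 2 has no partner. All values are read counts per mature miRNA that the authors normalized, corrected for batch and raised to at least 1, and they are called normalized read counts below. Their lowest possible value, 1, was not reached by any of the 8 miRNAs, although 121 values of the 10 paired libraries stood there. For each of the 8, both libraries of a day summed to the same total on all 5 days, to within 0.1%, so that a high value in one genotype is matched by a low value in the other. Floored values aside, this held for 591 of the 592 miRNAs and is not particular to the members. For the 8, each day therefore gives 1 difference, both groups have equal SDs, and the groups fail to overlap exactly where all 5 days go one way. For all 8 members the unpaired day 2 library held the average of the remaining Trimfl/fl libraries, and it was left out. The same was found for all 592 miRNAs once values below the floor were rebuilt. Trim71 mRNA is not part of these small RNA data, so that its loss could not be checked in them. How many reads lie behind a library is not known. Nothing in the labels says whether days are separate cultures, so that the p-values measure only the spread between these pairs, which may be technical.

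These miRNAs are classic marks of the neural lineage. miR-9 is made in neural progenitors and restrains factors that keep them dividing, miR-124 is among the most abundant miRNAs of neurons and lowers non-neuronal transcripts such as Ptbp1, and miR-128 and miR-137 accumulate as neurons mature, while miR-219 promotes the differentiation of oligodendrocytes, the myelinating glia. A hairpin precursor yields a 5p and a 3p strand, of which one usually enters the Argonaute complex and the other is mostly degraded. Outside the nervous system, the repressor REST keeps genes of miR-9 and miR-124 silent.

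Mature sequences were found in RefSeq (build GRCm38.p6) for 5 of the 8 members, and those of miR-124-3p, miR-124-5p and miR-219a-2-3p are named only. They are shown because the seed, bases 2 to 8 in capitals, sets which transcripts a miRNA pairs with, and the following lines run 5′ to 3′.
miR-9-5p: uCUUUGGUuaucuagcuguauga
miR-9-3p: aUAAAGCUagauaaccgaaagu
miR-128-3p: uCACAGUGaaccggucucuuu
miR-128-1-5p: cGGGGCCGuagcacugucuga
miR-219a-1-3p: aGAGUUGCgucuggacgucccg

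The 5 seeds differed from each other. None of them occurred in another of the 463 miRNAs of the table that had a sequence in RefSeq. Among all mature mouse miRNAs of that reference, 1 more carries one of these seeds: miR-128-2-5p has the seed of miR-128-1-5p, and it was not analysed here.

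Where a mature miRNA comes from several genes, the table cannot tell them apart, as the hairpins show. The mature strands are in capitals and the rest of each precursor is in lower case.
Mir9-1: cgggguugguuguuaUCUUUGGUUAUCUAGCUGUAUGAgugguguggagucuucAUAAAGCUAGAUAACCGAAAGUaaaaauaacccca
Mir9-2: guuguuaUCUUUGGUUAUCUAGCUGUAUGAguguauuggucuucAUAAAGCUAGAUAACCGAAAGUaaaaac
Mir9-3: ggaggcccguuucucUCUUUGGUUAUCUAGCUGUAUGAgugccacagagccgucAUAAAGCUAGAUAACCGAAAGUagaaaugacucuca
Mir128-1: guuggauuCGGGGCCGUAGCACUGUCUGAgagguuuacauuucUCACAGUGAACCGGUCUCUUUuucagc
Mir128-2: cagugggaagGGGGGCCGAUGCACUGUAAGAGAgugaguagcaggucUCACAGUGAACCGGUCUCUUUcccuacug

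All 3 Mir9 hairpins hold the same miR-9-5p and the same miR-9-3p, and differ only in the loop and the flanks. In GENCODE M21 on GRCm38, Mir9-1 lies at chr3:88215598-88215686 on the plus strand in an intron of the lincRNA gene Gm3764, Mir9-2 at chr13:83738814-83738885 on the plus strand in an exon of the lincRNA gene C130071C03Rik, and Mir9-3 at chr7:79505264-79505353 on the plus strand in an intron of the lincRNA gene Mir9-3hg. Both Mir128 hairpins give the same miR-128-3p, but their 5p strands differ, so that miR-128-1-5p reports on Mir128-1 alone. Mir128-1 lies at chr1:128202361-128202430 on the plus strand in an intron of R3hdm1, and Mir128-2 at chr9:112118636-112118711 on the minus strand in an intron of Arpp21. The genes of miR-124 overlap exons of lincRNA genes, with Mir124a-1 at chr14:64590657-64590741 in Mir124a-1hg, Mir124a-2 at chr3:17795662-17795770 in Mir124-2hg and Mir124a-3 at chr2:180894040-180894107 in Gm27032, all on the plus strand. Of the miR-219 genes, Mir219a-1 lies at chr17:34024983-34025092 on the minus strand in an exon of the lincRNA gene Gm26940, and Mir219a-2 at chr2:29845631-29845727 on the minus strand outside any other gene of its strand. Each has an antisense miRNA gene on the opposite strand, Mir219c and Mir219b. The mature miR-219a-1-3p is complementary to miR-219c-5p over a run of 20 bases. Mir9-1 also has a miRNA gene on the opposite strand, Gm25641. Whether the authors' counting used strand is not given in the sources used here, for miR-9 as for miR-219.

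The level of the 8 miRNAs in the undeleted cells covered more than 2 orders of magnitude on the scale of normalized read counts, which is not divided by length, for miRNAs of 21 to 23 bases where the sequence was at hand. Ligation favours some small RNAs over others, so that levels of different miRNAs are only approximately comparable. miR-9-5p had the highest mean in Trimfl/fl cells, 2316 ± 843 (SD, n = 5), which is rank 93 of 592. It was followed by miR-128-3p with 2120 ± 665 (SD, n = 5) at rank 95. These neighbours did not differ beyond their spread, since miR-9-5p was the higher in 3 of the 5 Trimfl/fl libraries. Then came miR-124-3p at 312 ± 109 (SD, n = 5), whose range lay wholly below that of miR-128-3p. The strand from the other side of its hairpin, miR-124-5p, had 127 ± 65.4 (SD, n = 5) at rank 303, below miR-124-3p in all 5 Trimfl/fl libraries although the ranges overlapped. miR-9-3p with 58.6 ± 24.3 (SD, n = 5) at rank 394 and miR-219a-1-3p with 48.4 ± 15.3 (SD, n = 5) at rank 416 overlapped with each other. The lowest levels were those of miR-128-1-5p, 10.4 ± 4.04 (SD, n = 5) at rank 560, and miR-219a-2-3p, 10.1 ± 1.79 (SD, n = 5) at rank 563, which did not differ beyond their spread and lay close to the authors' minimum of 10 for the larger group mean.

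**Figure D1:**
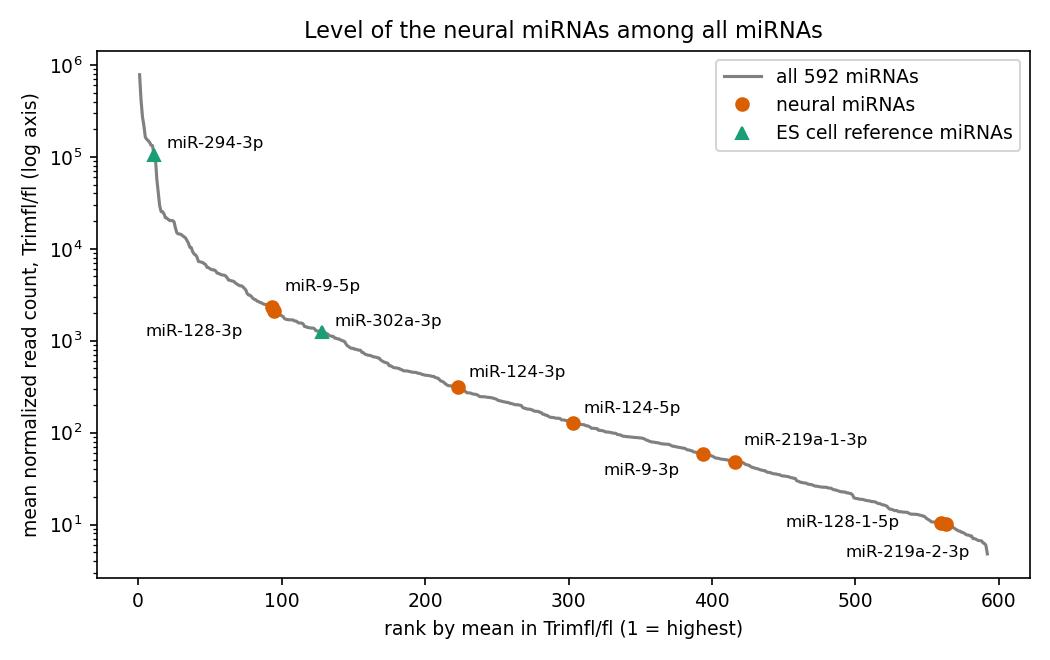
Mean normalized read count in the 5 Trimfl/fl libraries of the pairs (log axis) against rank for all 592 miRNAs (line), with the 8 neural miRNAs as circles and 2 mES cell miRNAs as triangles. The neural miRNAs spread from rank 93 to rank 563, and miR-9-5p and miR-128-3p sit above miR-302a-3p.

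For scale, miR-294-3p, a leading miRNA of the mES cell cluster from miR-290 to miR-295, had 105978 ± 18535 (SD, n = 5) in Trimfl/fl cells at rank 11. The pluripotency miRNA miR-302a-3p had 1250 ± 177 (SD, n = 5). miR-9-5p stood above miR-302a-3p in 4 of 5 Trimfl/fl libraries and in 5 of 5 Trim-/- libraries, and miR-128-3p stood above it in all 10. Summed, the 8 neural miRNAs took up 0.124% to 0.155% of a library's total in Trimfl/fl and 0.158% to 0.182% in Trim-/- libraries. miR-9-5p with miR-128-3p made up 78.3% to 95.5% of their sum. The gap between the genotypes in this share was not tested. In these bulk libraries, a change in the number of cells that make a miRNA and a change in its level per cell cannot be told apart. Of the markers of the labelled cell type, all 18 listed miRNAs from miR-290 to miR-295 were above the floor in every paired library and held 55.3% to 59.4% of the summed values. The 9 listed miRNAs of miR-302 and miR-367 held 0.191% to 0.651%, 1 of them had a value at the floor, and 0 of the 9 had a fitted log2 fold change above 0, with summed values of 8321 to 14421 in Trim-/- and 14066 to 20166 in Trimfl/fl libraries. The other cell type lists gave small shares: 8 miRNAs of fibroblasts held 0.364% to 0.815%, and the 3 listed miRNAs of blood cells at most 0.107%. The blood list summed to 503 to 1731 in Trim-/- and 1739 to 3010 in Trimfl/fl libraries, which did not overlap, with 0 of the 3 higher in Trim-/- cells and 2 with a value at the floor. Among single miRNAs, 6.25% of the table were lower in Trim-/- cells without overlap. The list includes both strands of 1 hairpin, miR-142-3p and miR-142-5p, and its part in the values of the neural miRNAs was not tested. Muscle was represented by miR-1a-3p, at 25.4 to 49.6 normalized read counts, and liver by miR-122-5p, at 1 to 38.9.

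Between the genotypes, 0 of the 8 neural miRNAs were past the cut-offs for a called difference (more than 1.5-fold, with p below 0.05 before adjustment) in the limma fit that had the day as a block. Over all 592 miRNAs, 0.845% were past these cut-offs as higher in Trim-/- cells, 4.56% as lower and 5.41% in either direction. Before adjustment, p lay under 0.05 for 0 of the 8 and for 5.41% of all miRNAs, and after adjustment for 0% of all miRNAs, with 0.607 as the smallest adjusted p in the table. With 5 pairs, swapping genotypes inside each day (exact permutation, two-sided) allows no p below 0.063. The fitted log2 fold change was above 0 for 7 of the 8, as it was for 51.2% of all miRNAs, and its median was 0.55 over the 8 and 0.03 over all. Among the cell type lists, it was above 0 for 13 of the 18 miRNAs from miR-290 to miR-295 and 6 of the 8 of fibroblasts. The same held for miR-1a-3p, miR-122-5p and all 17 listed miRNAs of let-7, 14 of them with a value at the floor. The miR-302 and miR-367 list had 0 of 9 above 0, and the blood list 0 of 3. Whether the members differ from these lists was not tested. The Trim-/- library was higher on at least 4 of the 5 days for 4 members, against 27.7% of all miRNAs. On all 5 days it was higher for 0 members, against 5.24%, and lower for 0 members, against 6.25%. These counts treat strands of 1 hairpin as separate members, although they share a precursor.

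**Figure D2:**
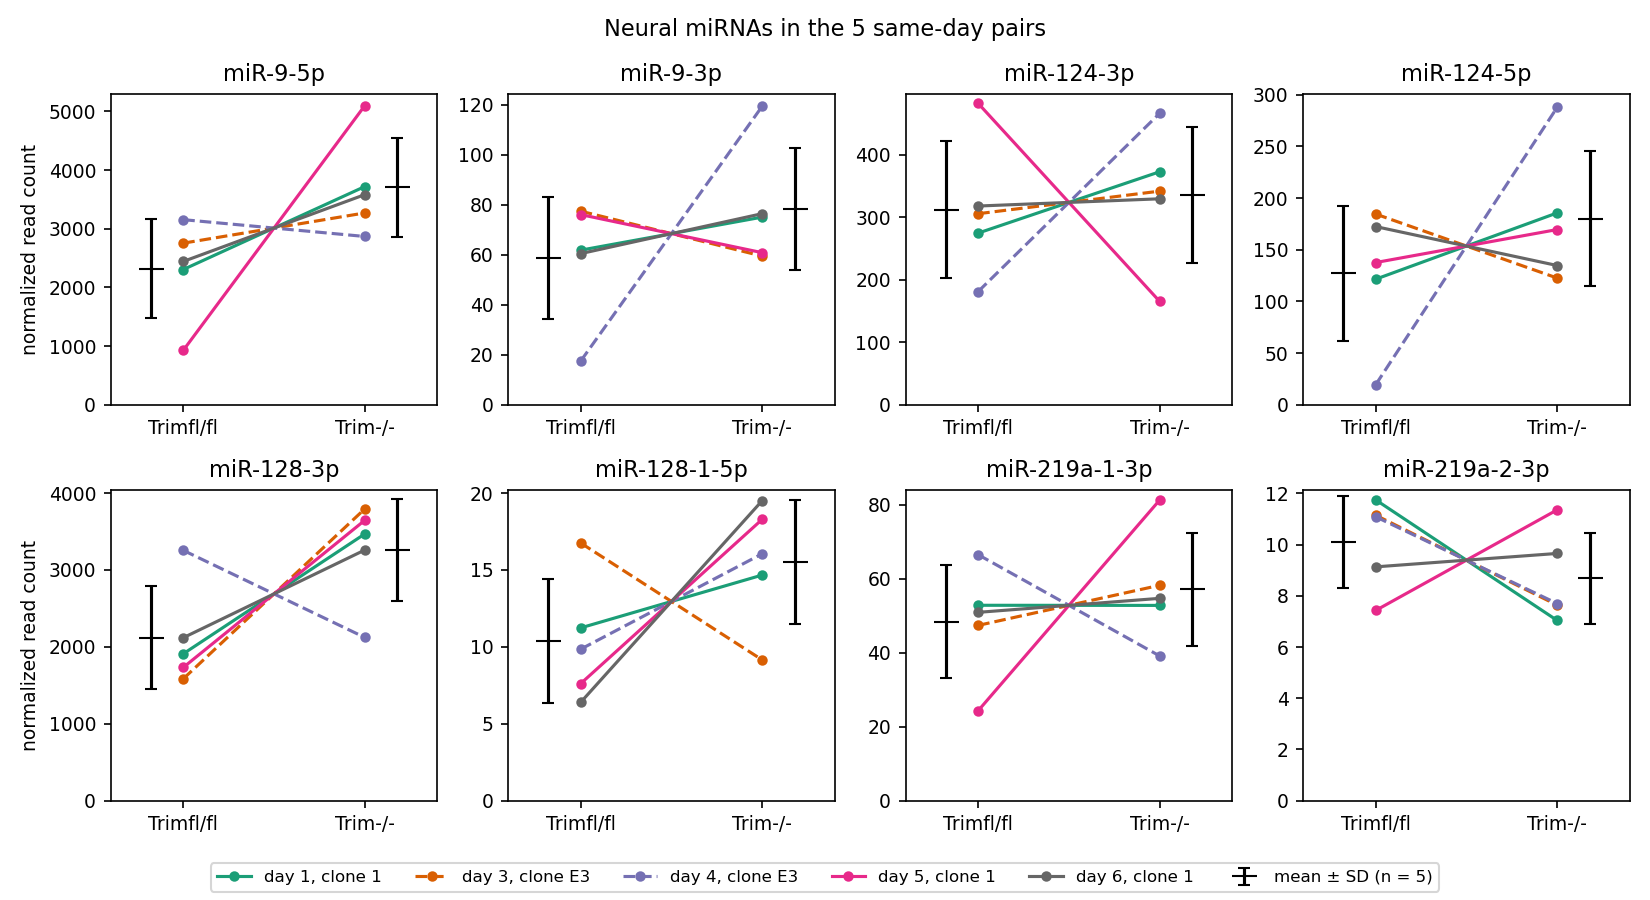
Normalized read count of each neural miRNA in Trimfl/fl (left) and Trim-/- cells (right), 1 line per same-day pair, solid for clone 1 and dashed for clone E3, with the mean and SD of 5 libraries beside each group. The lines of a panel cross at 1 point because same-day sums are equal. For miR-9-5p and miR-128-3p, 4 of 5 lines rise.

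miR-9-5p, the strand that represses progenitor factors such as Nr2e1, gave the highest ratio of means. In Trimfl/fl cells it was 2304, 2754, 3155, 926 and 2442 on days 1, 3, 4, 5 and 6. In Trim-/- cells it was 3719, 3269, 2868, 5098 and 3581 on the same days. The groups overlapped only through day 4, when the Trimfl/fl library was the higher, and day 5 stood out with the lowest Trimfl/fl and the highest Trim-/- value. The mean was 3707 ± 843 (SD, n = 5) in Trim-/- cells, 1.60 times that in Trimfl/fl cells. Its log2 fold change was 0.76 (standard error 0.42, limma unadjusted p = 0.122, adjusted p = 0.620), and the exact permutation within days gave p = 0.125. The 95% interval of the fold change ran from 0.827 to 3.48. Without the pair of day 5 the log2 fold change was 0.34.

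miR-9-3p, the opposite strand of the same hairpins, showed another order of days. Its values in Trimfl/fl cells were 61.8, 77.4, 17.4, 76.0 and 60.4 on days 1, 3, 4, 5 and 6, and in Trim-/- cells 75.0, 59.4, 119, 60.8 and 76.4. The day 4 libraries lay apart on both sides, and the 4 other pairs lay within a band from 59.4 to 77.4. The log2 fold change was 0.52 (standard error 0.51, limma unadjusted p = 0.342, adjusted p = 0.680) with the Trim-/- library higher on 3 of 5 days. Leaving out day 4 gave -0.02, so that the direction rested on that pair. The interval of the fold change, 0.608 to 3.40, covered both directions.

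miR-124-3p, the neuronal guide strand, had nearly equal means. It was 275, 306, 181, 482 and 318 in Trimfl/fl cells on days 1, 3, 4, 5 and 6, and 373, 342, 467, 165 and 330 in Trim-/- cells. The Trim-/- library was higher on 4 of 5 days, most on day 4, and on day 5 the Trimfl/fl library was much the higher. The means were 335 ± 109 (SD, n = 5) and 312 ± 109 (SD, n = 5), and the log2 fold change was 0.09 (standard error 0.44, limma unadjusted p = 0.837, adjusted p = 0.939). Fold changes between 0.507 and 2.25 lay within the 95% interval. The direction was negative without the pair of day 4 (log2 fold change -0.22) and on values scaled to equal library totals (-0.17).

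miR-124-5p, the less abundant strand, was 121, 185, 19.3, 137.6 and 172 in Trimfl/fl cells on days 1, 3, 4, 5 and 6, and 186, 123, 288, 170 and 134.7 in Trim-/- cells. The day 4 pair held the lowest and the highest of the 10 values, 3.83 apart on the log2 scale. On the other days the Trim-/- library was higher on days 1 and 5 and lower on days 3 and 6. The log2 fold change of 0.76 (standard error 0.68, limma unadjusted p = 0.309, adjusted p = 0.670) was -0.01 without the pair of day 4. Its 95% interval, from 0.532 to 5.39 as a fold change, was the widest of the 8.

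miR-128-3p, which is made from introns of R3hdm1 and Arpp21 and limits excitability genes in neurons, had the smallest unadjusted p of the 8. It was 1909, 1584, 3254, 1732 and 2118 in Trimfl/fl cells on days 1, 3, 4, 5 and 6, and 3468, 3793, 2123, 3645 and 3259 in Trim-/- cells. On days 1, 3, 5 and 6 every Trim-/- value lay above every Trimfl/fl value, and on day 4 the order was the opposite. The means were 3257 ± 665 (SD, n = 5) and 2120 ± 665 (SD, n = 5), a ratio of 1.54. The log2 fold change was 0.64 (standard error 0.35, limma unadjusted p = 0.115, adjusted p = 0.620, exact permutation within days p = 0.125), with a 95% interval of 0.865 to 2.80 as a fold change. Leaving out day 4, the only day against the trend, gave 0.95, past the cut-offs (limma unadjusted p = 0.0116, adjusted p = 0.385). Without that pair, 23 of all 592 miRNAs were past them as higher and 44 as lower, against 5 and 27 with it. Nothing is read from this call.

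miR-128-1-5p, the opposite strand from Mir128-1, was among the least abundant members. Its values were 11.2, 16.8, 9.85, 7.61 and 6.40 in Trimfl/fl cells and 14.7, 9.15, 16.1, 18.3 and 19.5 in Trim-/- cells on days 1, 3, 4, 5 and 6. Day 3 was the only day with a lower Trim-/- library, and its 2 values caused the overlap of the groups. The log2 fold change was 0.57 (standard error 0.39, limma unadjusted p = 0.194, adjusted p = 0.645), with a fold change interval from 0.768 to 2.86. Leaving out day 3 gave 0.91, past the cut-offs (limma unadjusted p = 0.0467, adjusted p = 0.718). Without that pair, 7 of all 592 miRNAs were past them as higher and 22 as lower. Nothing is read from this call, since the pair left out was the only one against the trend. The day against the trend thus differed between both strands, day 4 for miR-128-3p and day 3 for miR-128-1-5p.

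Both miR-219 strands come from the 3′ side of their hairpins, and their fitted changes had opposite signs. miR-219a-1-3p was 52.9, 47.4, 66.5, 24.3 and 50.9 in Trimfl/fl cells on days 1, 3, 4, 5 and 6, and 52.8, 58.3, 39.1, 81.3 and 54.7 in Trim-/- cells. The genotypes were nearly equal on days 1 and 6 and far apart on day 5. Its log2 fold change was 0.27 (standard error 0.39, limma unadjusted p = 0.519, adjusted p = 0.760), with a fold change interval from 0.621 to 2.34. Leaving out day 5 gave -0.09. miR-219a-2-3p was 11.7, 11.1, 11.1, 7.43 and 9.13 in Trimfl/fl cells and 7.04, 7.64, 7.70, 11.4 and 9.66 in Trim-/- cells. It was the only member with a lower mean in Trim-/- cells, 8.68 ± 1.79 (SD, n = 5) against 10.1 ± 1.79, and was lower there on days 1, 3 and 4. It met the minimum mean of 10 through Trimfl/fl cells alone, so that its place in the table favours a lower Trim-/- mean and its direction is given as a description. The log2 fold change was -0.20 (standard error 0.29, limma unadjusted p = 0.508, adjusted p = 0.757), and the fold change interval ran from 0.536 to 1.41. The same-day differences of both strands had opposite signs on day 3 alone and were highest on day 5 (1.70 and 0.55 on the log2 scale), with a root mean square difference of 0.70 over the 5 days.

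**Figure D3:**
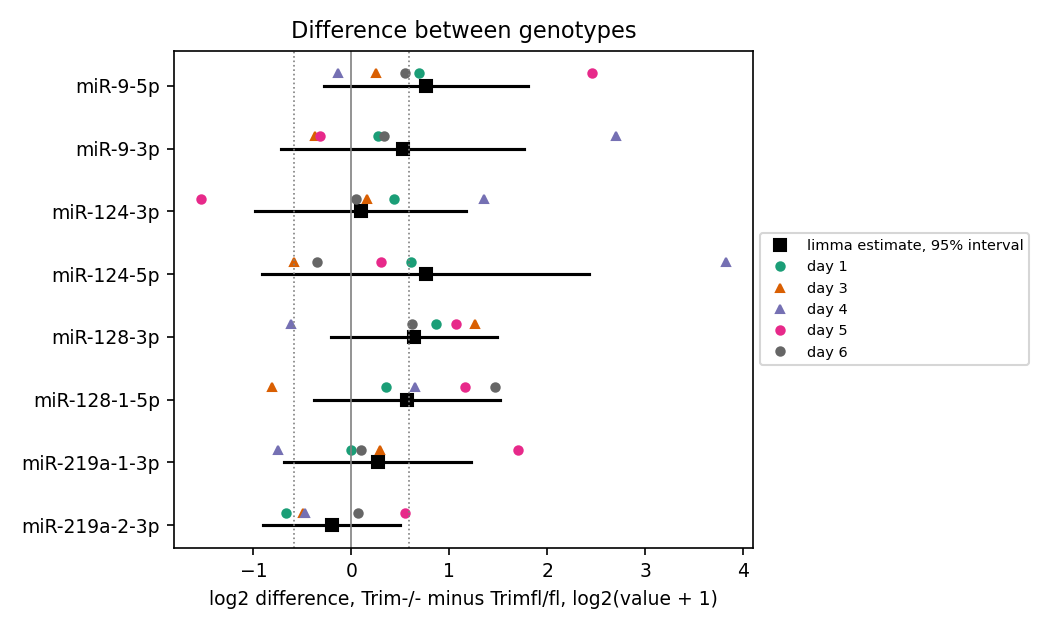
Log2 difference between Trim-/- and Trimfl/fl cells on log2(value + 1), with the limma estimate and its 95% interval (square and bar), the 5 same-day differences (circles for clone 1, triangles for clone E3) and the 1.5-fold threshold (dotted lines). All 8 intervals cross 0.

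The same-day differences did not line up across the 8 miRNAs. On day 4, miR-124-5p (3.83), miR-9-3p (2.71), miR-124-3p (1.36) and miR-128-1-5p (0.65) were higher in Trim-/- cells on the log2 scale, while miR-128-3p (-0.62), miR-219a-1-3p (-0.75), miR-219a-2-3p (-0.47) and miR-9-5p (-0.14) were lower. Day 5 showed high differences for miR-9-5p (2.46), miR-219a-1-3p (1.70), miR-128-1-5p (1.16) and miR-128-3p (1.07) and a low one for miR-124-3p (-1.54). The median over the 8 members lay between -0.11 on day 3 and 0.81 on day 5. The days differed in the libraries as a whole. Day 4 was the day on which the Trim-/- library had the lower summed value, 3751519 against 4332525, and day 5 had the largest gap the other way, 5551715 against 2742673. The 18 mES cell miRNAs from miR-290 to miR-295 had the same order in their summed values, with 2188720 against 2498630 on day 4 and 3070510 against 1621260 on day 5. They held 55.3% to 59.4% of each library's total, so that this order is no separate observation. The summed values of the 8 fibroblast miRNAs had that order too, with 13640 against 35331 and 35538 against 13413, although their median difference on day 4 was 1.02 on the log2 scale. The part of these library-wide differences in the values of the neural miRNAs was not tested. Scaling to equal library totals lowered the table-wide median from 0.03 to -0.24, and gave log2 fold changes of 0.49 for miR-9-5p, 0.26 for miR-9-3p, -0.17 for miR-124-3p, 0.49 for miR-124-5p, 0.37 for miR-128-3p, 0.32 for miR-128-1-5p, 0.0045 for miR-219a-1-3p and -0.45 for miR-219a-2-3p. As a share of its library's total, computed after the values had been seen, miR-9-5p was higher in Trim-/- cells on all 5 days without overlap of the groups, as were 0.845% of all miRNAs. On that scale miR-219a-2-3p was lower on all 5 days without overlap, as were 11% of all miRNAs, and nothing is read from this, since it met the minimum mean through Trimfl/fl cells alone. The limma fit on the scaled values passed the cut-offs for neither of them (adjusted p = 0.647 for both).

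**Figure D4:**
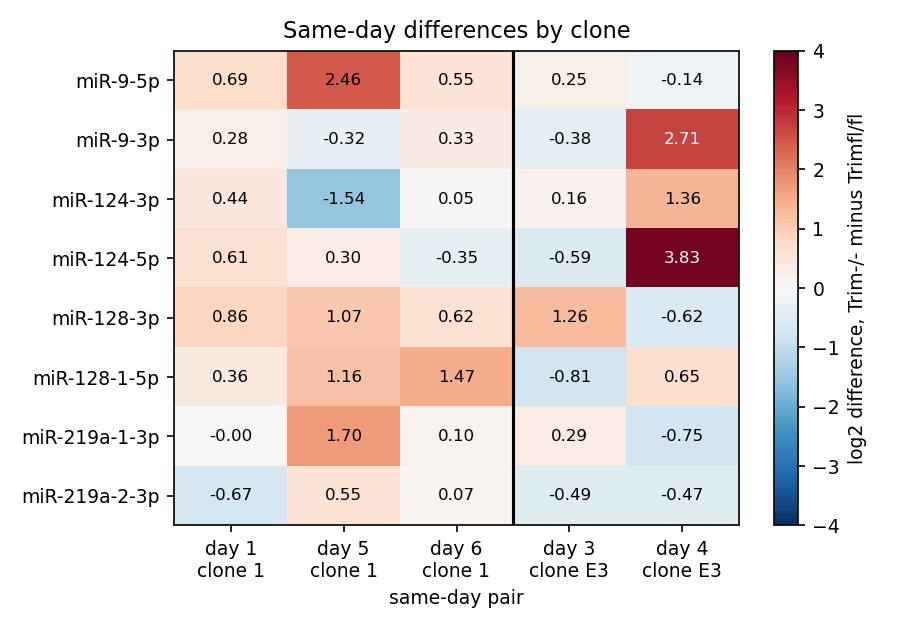
Same-day log2 differences (Trim-/- minus Trimfl/fl, colour and number) of the 8 neural miRNAs, with the days of clone 1 left of the line and those of clone E3 right of it. The highest differences, 3.83 for miR-124-5p and 2.71 for miR-9-3p, fall on day 4, and that of miR-9-5p, 2.46, on day 5.

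Within clone 1, the mean log2 difference was 1.23 for miR-9-5p, 0.10 for miR-9-3p, -0.35 for miR-124-3p, 0.18 for miR-124-5p, 0.85 for miR-128-3p, 1.00 for miR-128-1-5p, 0.60 for miR-219a-1-3p and -0.01 for miR-219a-2-3p. Within clone E3 these values were 0.05, 1.16, 0.76, 1.62, 0.32, -0.08, -0.23 and -0.48 in the same order. miR-9-5p and miR-128-3p were higher in Trim-/- cells on all 3 days of clone 1, and miR-128-1-5p was as well. The share of all miRNAs with this pattern was not counted, so that nothing is read from it. The difference between the clones was tested itself, in a limma fit on the 5 same-day differences. Before adjustment it passed 0.05 for 0 of the 8 members, against 5.57% of all miRNAs, and after adjustment 0.169% of all passed. The smallest unadjusted p of a member was 0.192 (adjusted p = 0.652 from limma), for miR-9-5p, with a difference of -1.18 (standard error 0.79) between clone E3 and clone 1, which was -0.57 without the pair of day 5. Without the pair of day 3, which leaves clone E3 with day 4 alone, the clone difference was 3.65 for miR-124-5p and 2.61 for miR-9-3p. No test is read from 1 pair. Leaving out day 4 instead turned both negative, to -0.77 and -0.47. With 3 and 2 pairs, the 95% interval for miR-9-5p from -3.17 to 0.82 on the log2 scale left room for large differences in either direction.

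The balance between strands was compared as a log2 ratio in each library. miR-9-5p exceeded miR-9-3p by 5.33 ± 1.36 (SD, n = 5) in Trimfl/fl and by 5.57 ± 0.64 (SD, n = 5) in Trim-/- cells. The 3p strand of miR-128 exceeded miR-128-1-5p by 7.56 ± 0.72 (SD, n = 5) and 7.63 ± 0.60 (SD, n = 5), with miR-128-3p counted from both of its genes. For miR-124 the excess of the 3p strand was smaller, 1.55 ± 0.99 (SD, n = 5) in Trimfl/fl and 0.88 ± 0.59 (SD, n = 5) in Trim-/- cells. The day 4 Trimfl/fl library had the highest ratio of all 10 libraries for miR-9 (7.42) and for miR-124 (3.17). Exact permutation within days gave p = 0.625 for miR-9, 0.438 for miR-124 and 1 for miR-128 (two-sided, n = 5 pairs), with adjusted values of 0.938, 0.938 and 1 over these 3 comparisons. The guide strand was the higher one in all 10 libraries for miR-9 and miR-128 and in 9 of 10 for miR-124.

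Likeness to other miRNAs was measured as the root mean square difference of the 5 same-day log2 differences. The nearest miRNA of the table was miR-361-3p for miR-9-5p (0.18), miR-883a-3p for miR-9-3p (0.56), miR-23a-3p for miR-124-3p (0.30), miR-9-3p for miR-124-5p (0.67), miR-130b-5p for miR-128-3p (0.32), miR-339-3p for miR-128-1-5p (0.46), miR-193b-3p for miR-219a-1-3p (0.21) and miR-130a-5p for miR-219a-2-3p (0.21). Next to miR-128-3p stood miR-290b-5p (0.35) and miR-292-3p (0.38), both of the mES cell cluster. In 1 of the 8 cases the nearest miRNA was itself a member. Strands of 1 hairpin were farther apart, at 1.81 for miR-9-5p and miR-9-3p, 1.43 for miR-124-3p and miR-124-5p and 1.17 for miR-128-3p and miR-128-1-5p. With 592 miRNAs and 5 days, near neighbours arise easily, and these distances are a description.

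A wider list of 20 other mature miRNAs known from neural cells gave a median log2 fold change of -0.03, beside 0.03 over the whole table, with 8 above 0 and 12 below, where 51.2% of all miRNAs were above 0. Of the 12, miR-153-3p (3.49 in Trim-/- against 10.1 in Trimfl/fl cells) and miR-7a-2-3p (9.21 against 10.6) met the minimum mean through Trimfl/fl cells alone, which favours a negative sign for them. One of the 20, miR-132-5p, from the activity-regulated miR-132 and miR-212 locus, was past the cut-offs as higher in Trim-/- cells (log2 fold change 0.85, standard error 0.27, limma unadjusted p = 0.0208, adjusted p = 0.607, higher on 5 of 5 days), and 0 were past them as lower, against 0.845% and 4.56% of all miRNAs. The other listed strands of this locus were not past them. Their log2 fold changes were 0.24 for miR-132-3p (standard error 0.35), 0.07 for miR-212-3p (0.47) and -0.10 for miR-212-5p (0.62). The paper had already reported mir-132 as upregulated in these data, so that miR-132-5p is no independent finding. miR-125b-1-3p had a fitted value of 1.503 (standard error 0.69, limma unadjusted p = 0.0709, adjusted p = 0.607) and was higher on 4 of 5 days. Its Trimfl/fl library of day 5 stood at the floor of 1, and without that pair, an alternative chosen after seeing the data, the mean difference was 0.82. miR-129-1-3p was lower on all 5 days without overlap of the groups, as were 6.25% of all miRNAs, at -0.69 (standard error 0.30, limma unadjusted p = 0.0647, adjusted p = 0.607). miR-134-5p had a fitted value of -2.46 (standard error 1.23, limma unadjusted p = 0.0923, adjusted p = 0.607), with a difference of -8.17 on day 6, when the Trim-/- library stood at the floor of 1. Without that pair its mean difference was -1.03. A member of this list is not necessarily rare in mES cells: miR-7a-5p had 132630 ± 15385 (SD, n = 5) normalized read counts in Trimfl/fl cells, rank 10 of 592, and a log2 fold change of -0.01 (standard error 0.25, limma unadjusted p = 0.977, adjusted p = 0.991). The mES cell miRNAs miR-294-3p and miR-302a-3p, by comparison, had log2 fold changes of 0.10 (standard error 0.28) and -0.64 (standard error 0.29).

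**Figure D5:**
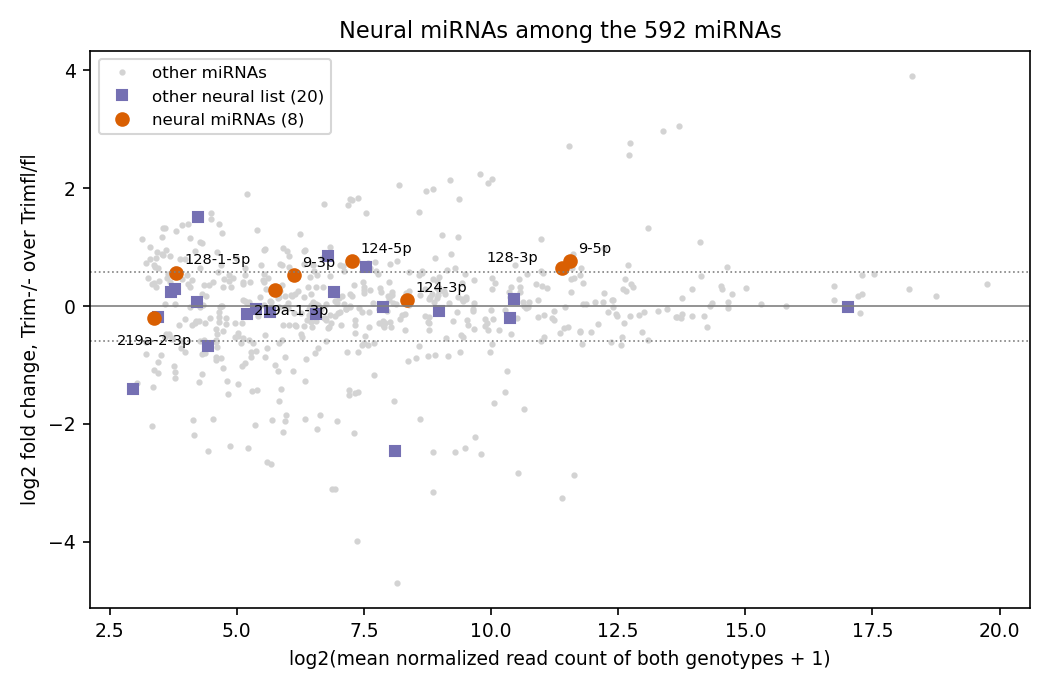
Log2 fold change (Trim-/- over Trimfl/fl, limma) against the mean level of both genotypes for the 592 miRNAs, with the 8 neural miRNAs as labelled circles and the 20 miRNAs of the wider list as squares. The neural miRNAs lie between -0.20 and 0.76.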

How the data were processed

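Small RNA libraries (NEBNext Multiplex Small RNA kit, per the published methods; the labels name a TruSeq RNA kit instead) were processed by the study with CASAVA 1.8, FLICKR, Bowtie2 2.2.1 on mm10 and miRBase, and Partek 6.6. The deposited values are a signal, not counts: the authors normalized read counts with DESeq2, applied a batch correction, raised anything below 1 to that floor, and kept a miRNA if either genotype averaged at least 10. Depth is therefore unknown, and 0 sample columns were left unused. Values of the 10 paired libraries were compared as log2(value + 1), which understates changes of low values, with limma 3.58.1 under R 4.3.3, taking genotype and day as factors, with Benjamini-Hochberg adjustment over all 592 miRNAs. The cut-offs were those of the study. The labels give the pairing, 1 library of each genotype per day and clone. Across miRNAs, the correlation of partners' deviations was -0.65 to -0.41, which the equal same-day sums impose. Exact permutations were two-sided, over 32 sign patterns.

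The miRNAs named are the 8 members, miR-294-3p and miR-302a-3p as references, the nearest miRNAs by same-day differences (3 were computed per member) and the miRNA of the wider neural list past the cut-offs. miR-134-5p, miR-125b-1-3p, miR-129-1-3p, miR-132-3p, miR-212-3p, miR-212-5p, miR-153-3p, miR-7a-2-3p and miR-7a-5p were chosen after their values were seen. Members, lists and tests were chosen with earlier results of these data known. Besides the neural list, lists for mES cells, fibroblasts, muscle, liver, blood and let-7 were read. The let-7 list of 17 miRNAs summed to 34196 to 95515 in Trim-/- and 780 to 32927 in Trimfl/fl libraries, and without the day 6 pair, whose Trimfl/fl library gave the lowest sum, to 34196 to 39886 and 27237 to 32927. Of the 17, 14 had a value at the floor of 1, so that the sum of 780 rests in part on floored values. Alternatives were the fit without day, with clone in place of day, with all 11 libraries, without each pair, within each clone, under 2 other scalings, with pseudocounts of 0.1 and 10, on untransformed values, on values rebuilt below the floor, with a trend, and on miRNAs with a mean of at least 100 or without floored values. The fit was tested on simulated data. Python 3.11.15, pandas 2.3.3 and matplotlib 3.10.9 were used for summaries and plots.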

Additional observations from a re-analysis of the deposited data

Results flagged for a closer look

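Within a genotype, 5 of 16 groups of 5 libraries held a library far from the others by Dixon's gap ratio on the untransformed or the log2 scale, where chance marks about 1 group in 20 on each scale. Over all 592 miRNAs the same held for 18.5% of 1184 groups. Same-day sums are equal, so that both groups of a miRNA are not separate cases. On day 4 the Trimfl/fl library was low for miR-124-5p, at 19.3 (gap ratio 0.812 on the log2 scale), and for miR-9-3p, at 17.4 (0.831 on the log2 and 0.717 on the untransformed scale). Its Trim-/- partner was high for miR-9-3p, at 119 (0.717 untransformed), which mirrors the same pair and adds no independent value. The day 4 Trim-/- library was low for miR-128-3p, at 2123 (0.738 on the log2 scale). On day 5 the Trimfl/fl library was low for miR-9-5p, at 926 (0.744 on the log2 scale).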

How the results depend on the processing

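The count of members past the cut-offs as higher was 2 without the replicate block (miR-9-5p and miR-128-3p, with log2 fold changes of 0.76 and 0.64, as with the block) and with all 11 libraries and no replicate block (0.74 and 0.63), 1 with clone in place of day (miR-128-3p, 0.64), and 0 to 1 without single pairs. It was 0 under each other setting, and the count of lower members was 0 throughout. The smallest adjusted p of a member over the limma fits run was 0.0949 (miR-128-3p, 11 libraries). Same-day libraries mirror each other, so that fits without day treat 5 differences as 10 separate values. Over all miRNAs, higher and lower counts were 5 and 27, against 42 and 59 without the replicate block, 36 and 57 with clone in place of day, 45 and 71 with 11 libraries, 14 and 45 within clone 1, 8 (higher) within clone E3, 2 and 48 after division by totals, 8 (higher) with a pseudocount of 10, 9 (higher) on untransformed values with or without the floor, 10 (higher) on miRNAs without floored values, 10 (lower) with a mean of at least 100, and 4 to 23 and 11 to 44 without single pairs, with 23 and 44 without day 4.

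Without single pairs the log2 fold change ranged from 0.34 to 0.99 for miR-9-5p, -0.021 to 0.75 for miR-9-3p, -0.22 to 0.50 for miR-124-3p, -0.0083 to 1.10 for miR-124-5p, 0.48 to 0.95 for miR-128-3p, 0.34 to 0.91 for miR-128-1-5p, -0.090 to 0.52 for miR-219a-1-3p and -0.39 to -0.09 for miR-219a-2-3p. Direction reversed for miR-124-3p within clone 1 (-0.35) and after division by totals (-0.17), and for miR-128-1-5p (-0.077) and miR-219a-1-3p (-0.23) within clone E3. The median of the wider neural list was -0.29 after division by totals and -0.08 to 0.08 without single pairs. The strand ratio difference ranged without single pairs from -0.40 to 1.01 for miR-9, -0.43 to 0.41 for miR-128 and -1.02 to -0.21 for miR-124. The clone difference ranged from -0.77 to 3.65 for miR-124-5p, -0.47 to 2.61 for miR-9-3p, -1.47 to 0.41 for miR-128-3p and -1.52 to -0.57 for miR-9-5p. Without day 3 or day 4, clone E3 is left with 1 pair, so that only the size of the difference is given there. The causes of these changes were not tested. Depth is unknown, so that counting error could not be separated from other spread for the lowest members, miR-128-1-5p and miR-219a-2-3p.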

Other observations

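As a share of the summed values of each library, computed per member after the values had been seen, miR-9-5p was 613, 713, 728, 337.5 and 649 per 1000000 in Trimfl/fl cells on days 1, 3, 4, 5 and 6, and 859, 775, 765, 918 and 823 per 1000000 in Trim-/- cells. On this scale it was higher in Trim-/- cells on all 5 days and the groups did not overlap, as in 0.845% of all 592 miRNAs. The limma fit on values divided by library totals gave it an unadjusted p of 0.193 (adjusted p = 0.647). miR-219a-2-3p, which met the authors' minimum group mean through Trimfl/fl cells alone, so that a lower Trim-/- value is favoured, was lower on all 5 days on this scale, at 1.63 to 2.22 per 1000000 in Trim-/- and 2.43 to 3.13 in Trimfl/fl cells, as were 11% of all miRNAs (limma unadjusted p = 0.179, adjusted p = 0.647). For miR-128-3p the groups overlapped on this scale too, through day 4, with 566 per 1000000 in Trim-/- and 751 in Trimfl/fl cells.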
